A study of Mus musculus with 12 samples.

Results

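mmu-miR-221 and mmu-miR-222 are 2 of the 650 miRNAs on the array used here, taken by name as the array spells them and followed through all 6 groups of the study. They are neighbours on the mouse X chromosome and are made from hairpins of a shared primary transcript. Each was read by 2 probes of 10 spots per array, and the pair was chosen with earlier results of these data known.

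The study hybridised total RNA of mouse embryonic fibroblasts (MEFs), connective-tissue cells grown from embryos, to 12 one-colour Agilent miRNA arrays. The KO groups carried the ATF6aKO genotype, in which the ER stress mediator ATF6a is missing, and were treated with 2 ug/mL tunicamycin for 12 h, treated for 24 h or left untreated. The WT groups carried the ATF6aWT genotype under the same 3 conditions. All cells were of C57BL/6 background, and each group had 2 arrays, described as independent experiments. The labels do not say whether the MEFs of a genotype came from 1 embryo or line, so the p-values below measure the spread between these arrays. The arrays hold no mRNA probes, so the deletion of ATF6a was not checked here.

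ATF6a sits in the endoplasmic reticulum (ER) membrane and, when unfolded proteins accumulate, is cut in the Golgi to free a transcription factor that raises chaperone genes. Tunicamycin blocks the N-linked glycosylation of proteins and so starts this unfolded protein response. miR-221 and miR-222 are known in human cells to lower CDKN1B (p27), an inhibitor of the cell cycle, and the receptor KIT, and have been described as lower under ER stress in human liver cancer cells. They are abundant in fibroblasts and other mesenchymal cells.

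Both members matched the RefSeq miRNA table of build GRCm38.p6, and their mature 3′-arm sequences are shown because the pair shares its seed, the bases that select targets. Capitals mark the seed, bases 2 to 8 from the 5′ end.
mmu-miR-221-3p: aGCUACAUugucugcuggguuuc
mmu-miR-222-3p: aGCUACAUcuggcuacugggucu
The mature sequence of miR-221 lies at chrX:19146307-19146329 and that of miR-222 at chrX:19146901-19146923, both on the minus strand. The first 8 of their 23 bases are identical, and 11 of 23 positions hold the same base when the sequences are set side by side without gaps. Among 1738 mature entries of the table, 3 carry this seed. The third is miR-1928, which has no entry among the array's names, like the 5′-arm products of both hairpins.

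The hairpins are shown next, with the mature 3′ arm in capitals, to show where in each precursor the measured RNA lies.
Mir221 hairpin: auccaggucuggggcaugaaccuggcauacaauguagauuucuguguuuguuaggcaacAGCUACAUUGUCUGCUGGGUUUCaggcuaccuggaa
Mir222 hairpin: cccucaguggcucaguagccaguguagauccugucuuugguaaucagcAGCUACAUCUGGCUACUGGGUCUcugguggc
The Mir221 hairpin spans chrX:19146294-19146388 and the Mir222 hairpin chrX:19146893-19146971, with 504 bases between them. No other gene of the RefSeq table overlaps this interval, and the nearest, the lncRNA Gm14636, starts 9500 bases away. The array's names carry no arm. They are read here as the 3′-arm products, the usual meaning of the unmarked names, and no probe sequence was used to check this.

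Facts of the whole series bear on every value below. The untreated arrays lay on 1 slide, scanned in runs 1 and 2, and the treated arrays on another, scanned in runs 3 and 4, so the slide cannot be told apart from treatment. On both slides WT arrays were in row 1 and KO arrays in row 2, so genotype and row cannot be told apart either. Each run held 1 replicate of every group on its slide. An array had 85 to 171 miRNAs well above background, with the 2 lowest numbers on treated arrays of run 4. Replicates of a group differed, as an SD taken over the tested miRNAs, by 0.206 in untreated KO and 0.204 in untreated WT cells on the log2 scale, against 0.715 to 1.19 in the treated groups. Of 17 mesenchymal and fibroblast marker miRNAs, 16 were well above background on both untreated arrays of each genotype, and miR-145 was on none. Their summed scaled level was 16.9 to 25.3 in treated KO cells, against 30.1 to 32.2 in untreated KO cells. It was 19.2 to 19.7 in treated WT cells, against 35.3 to 36.3 in untreated WT cells. The part of this shift in the results below was not tested. None of 6 blood, 6 epithelial, 3 neural and 2 endothelial marker miRNAs was well above background on any array, and at most 1 of 4 muscle and 1 of 8 pluripotency markers was in any group.

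miR-221 was measurable in every group. It was highest in untreated KO cells and lowest in WT cells after 24 h of tunicamycin. It was well above background on all 12 arrays, meaning that on each array over 50% of the spots of at least 1 of its probes were marked so by the scanner software. Probe A_54_P3830 met this on all 12 arrays and probe A_54_P2640 on all but replicate 2 of WT cells at 24 h, where 2 of 10 spots were marked. Levels are given as log2 of the intensity divided by the array's 75th percentile over 87 probes well above background on all arrays, averaged over both probes.

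The log2 level of miR-221 was -1.51 and -1.46 in untreated KO cells (replicates 1 and 2). In KO cells it was -1.53 and -2.28 at 12 h of tunicamycin, and -2.11 and -2.51 at 24 h. The replicates of KO cells at 12 h lay far apart, with replicate 1 near the untreated KO level. WT cells had -2.16 and -2.13 untreated, -2.09 and -2.34 at 12 h, and -2.50 and -2.70 at 24 h. In all 4 treated groups the replicate scanned in run 3 was higher than the one scanned in run 4.

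The group means were -1.49 ± 0.04 in untreated KO, -1.90 ± 0.53 in KO at 12 h and -2.31 ± 0.28 in KO at 24 h (SD, n = 2 each). They were -2.15 ± 0.02 in untreated WT, -2.22 ± 0.18 in WT at 12 h and -2.60 ± 0.14 in WT at 24 h (SD, n = 2 each). From high to low the order was untreated KO, KO at 12 h, untreated WT, WT at 12 h, KO at 24 h and WT at 24 h. Neighbours in this order overlapped, except untreated KO and KO at 12 h.

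**Figure D1:**
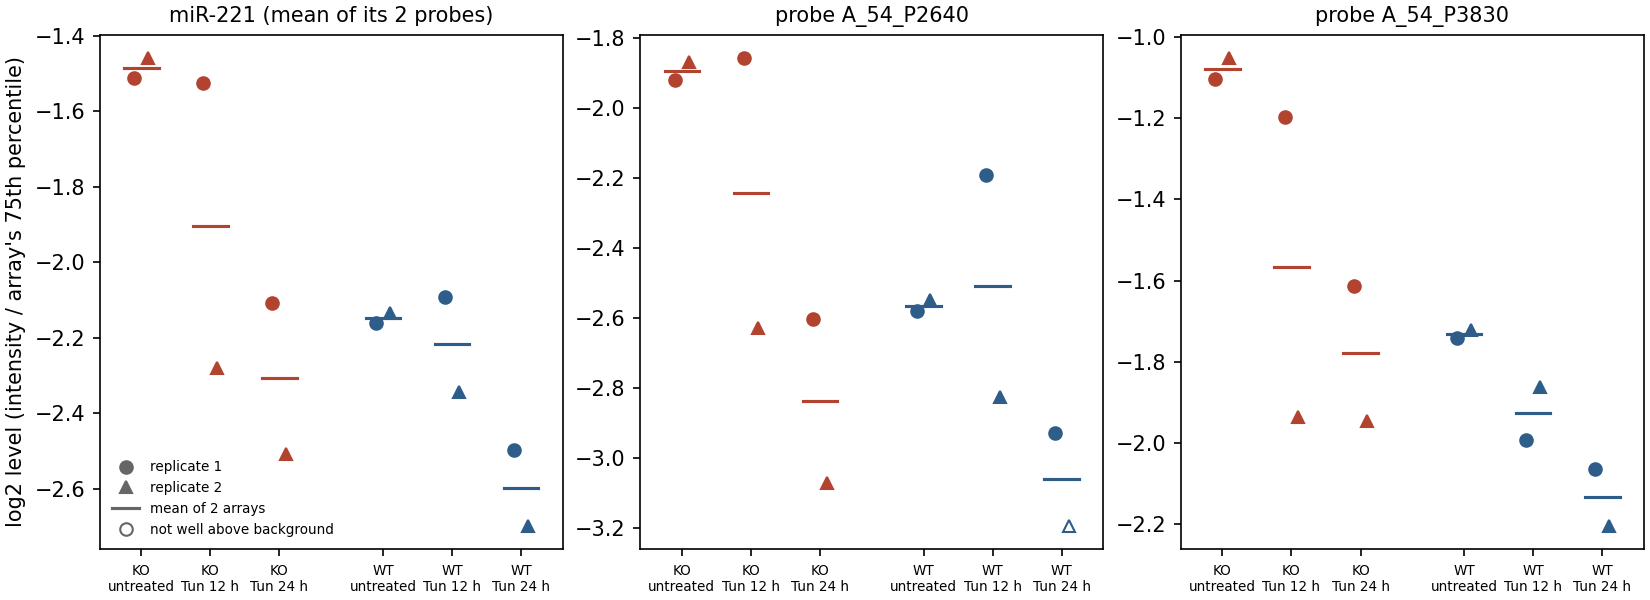
Log2 level of miR-221 on each array, as the mean of its probes (left) and for each probe, in 3 panels with separate axes; circles are replicate 1, triangles replicate 2, bars the mean of 2 arrays, and an open symbol is not well above background. Untreated KO arrays (-1.51 and -1.46) lie above untreated WT arrays (-2.16 and -2.13), and the replicates of the treated groups spread more widely.

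The probes agreed on the untreated genotype difference and less so after treatment. In untreated cells, A_54_P2640 read 26.4% and 27.4% of the array's 75th percentile in KO, against 16.7% and 17.1% in WT. A_54_P3830 read 46.5% and 48.2% in untreated KO, against 29.9% and 30.3% in untreated WT. The KO arrays were higher on both probes. In treated KO cells, A_54_P2640 read 27.6% and 16.2% at 12 h, and 16.5% and 11.9% at 24 h, against 21.9% and 14.1% at 12 h, and 13.1% and 10.9% at 24 h, in treated WT cells. A_54_P3830 read 43.6% and 26.1% at 12 h, and 32.7% and 26.0% at 24 h, in KO, against 25.1% and 27.5% at 12 h, and 23.9% and 21.7% at 24 h, in WT. After treatment the genotypes overlapped on both probes at 12 h, and at 24 h they overlapped on A_54_P2640 but not on A_54_P3830, where KO was higher by 0.36 on the log2 scale. On replicate 1 of WT at 12 h, A_54_P3830 had 3 dim spots of 8.38 to 24.6 intensity units beside 7 spots of 131 to 235, none of them marked as an outlier. The 2 probes then differed in sign for WT at 12 h against untreated, with 0.06 on the log2 scale for A_54_P2640 and -0.20 for A_54_P3830.

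Whether ATF6a status was linked to the level of miR-221 was asked first in untreated cells. miR-221 was 1.58 times as high in KO as in WT, a log2 difference of 0.66 ± 0.25 (SE; 95% confidence interval 0.08 to 1.24), and the groups did not overlap. It did not pass the test, limma's moderated test with Benjamini-Hochberg adjustment over 175 miRNAs (adjusted p = 0.0956). Within run 1 the difference was 0.65 and within run 2 it was 0.68. With the scanning run as a block the adjusted p was 0.0184, and in a fit of the 4 untreated arrays alone it was 0.00220, both past the threshold of 0.05. Of the 175 tested miRNAs, 56 passed with the block and 95 in the fit of the untreated arrays alone. miR-221 was not past the threshold with normexp background correction (0.37, adjusted p = 0.381), scaling on all probes (1.11, adjusted p = 0.951), quantile normalization (0.74, adjusted p = 1) or in the deposited table (1.13, adjusted p = 0.854). The fit of all 12 arrays shares 1 spread over groups whose replicates differ unequally, as given above. Groups did not overlap for 69.7% of the tested miRNAs in this comparison.

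After treatment the genotypes were less clearly apart. At 12 h the log2 difference of miR-221, KO minus WT, was 0.31 ± 0.25 (SE, adjusted p = 0.647), with 0.56 within run 3 and 0.06 within run 4. At 24 h it was 0.29 ± 0.25 (SE, adjusted p = 0.647), with 0.39 within run 3 and 0.19 within run 4. KO was the higher genotype in each of the 4 runs, by differences that ran from 0.06 to 0.68, while neither treated difference passed the test. The 12 h difference was -0.06 without replicate 1 of KO at 12 h. Leaving out replicate 1 of KO at 24 h moved the 24 h difference to 0.09, and leaving out replicate 2 moved it to 0.49. The 24 h difference turned to -0.03 with normexp background correction and -0.15 with scaling on all probes.

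Tunicamycin was set against no treatment within each genotype. In KO cells the log2 difference of miR-221 was -0.42 ± 0.25 at 12 h (SE, adjusted p = 0.288) and -0.82 ± 0.25 at 24 h (SE, adjusted p = 0.0775; 95% confidence interval -1.40 to -0.24). Both treated KO groups lay below the untreated KO arrays without overlap, as did 52.6% of all tested miRNAs in either direction at 12 h and 57.7% at 24 h. This holds for the mean of the probes. On A_54_P2640 alone the groups overlapped at 12 h, where replicate 1 read 27.6%, against 26.4% and 27.4% untreated. With the scanning run as a block, the 24 h difference passed the test (adjusted p = 0.0144), where 30 of the 175 tested miRNAs passed. Leaving out replicate 1 of KO at 12 h moved the 12 h difference to -0.80 (adjusted p = 0.0187), and leaving out replicate 2 moved it to -0.04, so the 12 h value rests on which array is kept.

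In WT cells the log2 difference was -0.07 ± 0.25 at 12 h (SE, adjusted p = 0.859), with overlapping groups. At 24 h it was -0.45 ± 0.25 (SE, adjusted p = 0.208), with no overlap, as for 70.9% of all tested miRNAs. The 24 h difference passed the test with the run as a block (adjusted p = 0.0459) and in a fit of the 4 arrays compared (adjusted p = 0.0362). Of the 175 tested miRNAs, 88 passed with the block and 91 in the fit of the arrays compared. The 24 h difference of miR-221 was -0.001 with normexp background correction. The WT responses are read against a background in which the median of all tested miRNAs was -0.27 at 12 h and -0.21 at 24 h, while in KO cells that median was -0.09 at 12 h and -0.0005 at 24 h.

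The response of KO cells minus that of WT cells was -0.35 ± 0.35 at 12 h (SE, adjusted p = 0.628) and -0.37 ± 0.35 at 24 h (SE, adjusted p = 0.591) for miR-221. The intervals, -1.17 to 0.47 and -1.20 to 0.45, cover a response in KO that is more negative than in WT by over 1 log2 unit as well as none. Leaving out replicate 2 of KO at 12 h turned the 12 h value to 0.03, and leaving out 1 or the other KO array at 24 h gave 24 h values of -0.57 and -0.17. The later time was lower in both genotypes, by -0.40 ± 0.25 in KO (SE, adjusted p = 0.541) and -0.38 ± 0.25 in WT (SE, adjusted p = 0.611), 24 h minus 12 h. Within runs 3 and 4 these differences were -0.58 and -0.23 in KO and -0.41 and -0.35 in WT. Neither passed the test, and the groups overlapped in KO but not in WT, where 41.7% of tested miRNAs did not overlap. Leaving out replicate 1 of KO at 12 h moved the KO value to -0.03, and leaving out replicate 2 moved it to -0.78. Quantile normalization turned both to positive values (0.25 in KO, 0.20 in WT), as did scaling on all probes (0.25 in KO, 0.44 in WT), and normexp turned the WT value to 0.01.

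**Figure D2:**
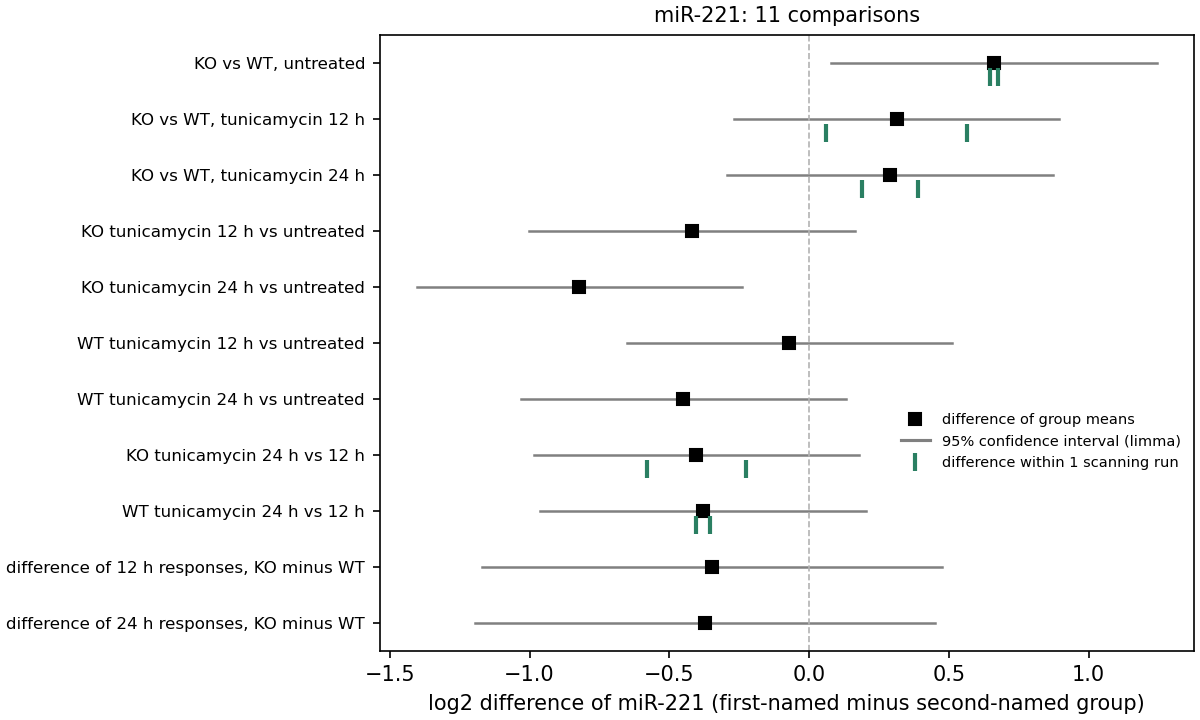
Log2 differences of miR-221 in 11 comparisons, first-named minus second-named group; squares are differences of group means, lines their 95% confidence intervals and green ticks the difference within each scanning run where a run holds both groups. The intervals of untreated KO against WT (0.08 to 1.24) and of KO at 24 h against untreated (-1.40 to -0.24) leave out 0, though neither passed the adjusted test.

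miR-222 was a dim signal that was measured in untreated cells and hardly at all in treated ones. It was well above background on all 4 untreated arrays and, among the 8 treated arrays, only on replicate 1 of KO at 24 h, where 5 of 9 spots of 1 probe were marked. In untreated cells it was higher in KO than in WT.

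Probe A_54_P2644 carried most of this. It read 8.63% and 8.55% of the array's 75th percentile in untreated KO cells, against 5.13% and 5.24% in untreated WT cells. It read 2.60% and 2.44% in KO at 12 h, and 2.37% and 0.06% in KO at 24 h. WT cells had 1.83% and 2.41% at 12 h, and 1.54% and 1.02% at 24 h. All treated arrays lay below all untreated arrays on this probe. Groups did not overlap for 74.3% of tested miRNAs in WT at 12 h against untreated, and the other 3 such shares are given above. The 95th percentile of the negative-control spots was 1.19% to 2.10% on the untreated arrays and 1.49% to 5.72% on the treated ones.

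The other probe, A_54_P2643, read 5.07% and 3.87% in untreated KO cells and was well above background there. In untreated WT cells it read 2.74% and 2.09%, near the negative controls, and was not well above background. On the 8 treated arrays it read between -0.32% and 1.81%. Between untreated genotypes this probe was at least 1.43-fold higher in KO, with the KO mean set against the floor in WT. The probe was used because of its untreated KO arrays alone. That favours this direction, so the fold is a description and no support.

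**Figure D3:**
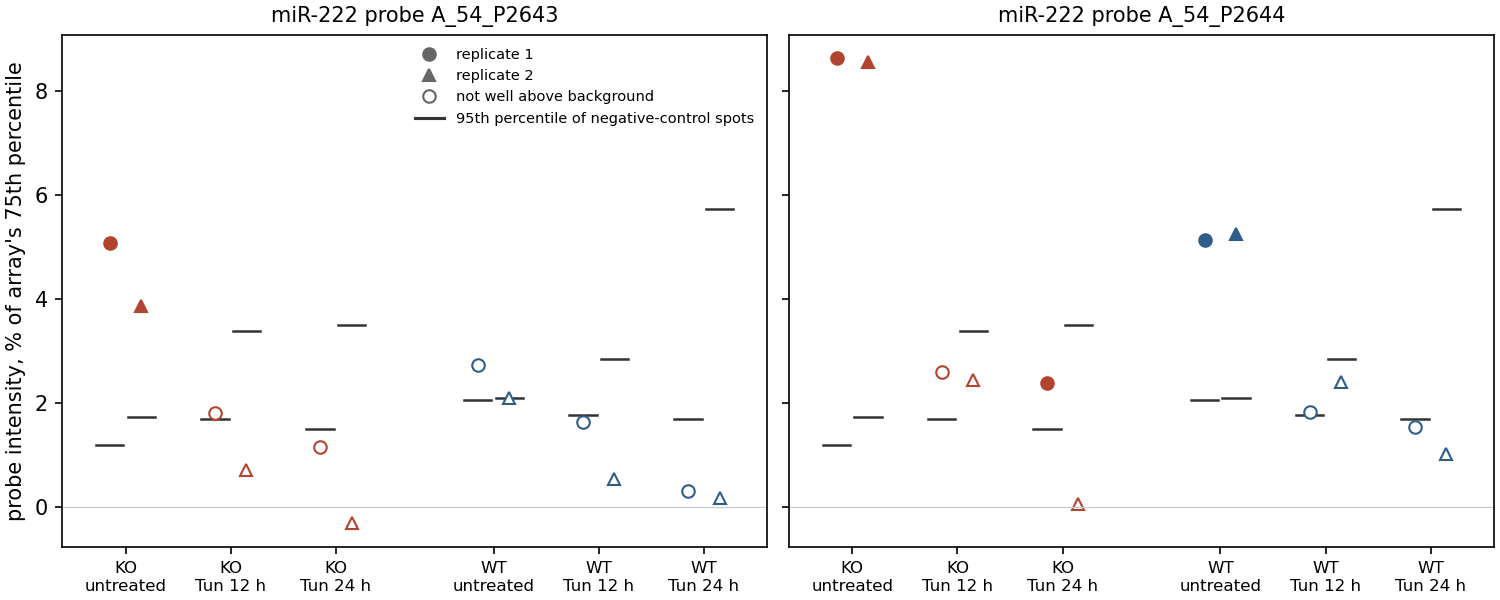
Intensity of the 2 miR-222 probes on each array as a percentage of the array's 75th percentile (linear axis); circles are replicate 1, triangles replicate 2, open symbols are not well above background, and dark bars give the 95th percentile of that array's negative-control spots. Probe A_54_P2644 read 8.63% and 8.55% in untreated KO and 5.13% and 5.24% in untreated WT cells, and at most 2.60% on any treated array.

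Replicate 1 and replicate 2 of the treated groups could not show miR-222 equally well. The lowest signal well above background was 2.21% to 3.72% of the 75th percentile on the treated arrays of run 3. On those of run 4 it was 7.87% to 13.7%. The untreated WT readings of A_54_P2644 (5.13% and 5.24%) lie above the lowest such signal of the run 3 arrays and below that of the run 4 arrays. On run 3 this probe read 1.54% to 2.60%.

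Values were floored at 0.0309 of the 75th percentile (-5.02 on the log2 scale) before the fit. The log2 level of miR-222 was then -3.92 and -4.12 in untreated KO cells, against -4.65 and -4.63 in untreated WT cells, and -5.02 on all 8 treated arrays. The difference in untreated cells was 0.62 ± 0.07 (SE; 95% confidence interval 0.45 to 0.80; adjusted p = 0.000921), a ratio of 1.54, with 0.73 within run 1 and 0.51 within run 2. Probe A_54_P2643 entered this mean through untreated KO alone and lay at the floor in untreated WT, which also narrows the WT spread. Its part, 0.52, is set by the floor, while A_54_P2644, measured in both genotypes, gave 0.73. Of the members, 1 of 2 thus passed as higher in untreated KO, as did 3.43% of the 175 tested miRNAs. The 8 floored arrays have no spread, so 4 of the 6 residual degrees of freedom add none, which lowers the SE above. On the 4 untreated arrays alone the adjusted p was 0.0128, and with the run as a block it was 0.00278. In these fits 95 and 56 of the 175 tested miRNAs passed in either direction. The call was lost with normexp background correction, which gave -0.04 (adjusted p = 0.942). That setting starts from the spots' raw median signal and local background and adds an offset of 50. Which of these mattered was not tested. The call was also lost with scaling on all probes (1.02, adjusted p = 0.434), in the deposited table (1.25, adjusted p = 0.854), after centring that table (1.19, adjusted p = 0.455) and from the summed signal (0.69, adjusted p = 0.199).

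Against untreated cells, the fitted log2 differences of miR-222 were -0.997 in KO at 12 h and at 24 h and -0.37 in WT at 12 h and at 24 h. miR-222 entered the tested set through its untreated groups alone, and the treated values are the floor, so the size and the direction of these differences follow from the filter and the floor. They are no measured folds, and no test of them is given as a result. With the lowest well-above-background signal of each dim array in place of the floor, no fold above 1 was left at the level of the miRNA. For probe A_54_P2644 alone, the same calculation gave 1.23-fold lower in KO at 12 h and 1.05-fold lower in WT at 12 h than in untreated cells of the genotype. Neither is a strict bound, since the limit of the run 4 arrays lay above the untreated level. Less miR-222 per cell and fewer of the cells that make it cannot be told apart in RNA of whole cultures.

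Between treated groups miR-222 gave no measurable difference. KO and WT at 12 h and at 24 h, and 24 h against 12 h in each genotype, all had a fitted difference of 0, because the arrays compared lay at the floor. None of these 4 comparisons of miR-222 can be read as equality. Over all tested miRNAs, 7.43% passed at 12 h and 9.71% at 24 h for KO against WT. Nor could the response of KO cells minus that of WT cells be measured for miR-222 at either time, since both treated groups lay at the floor.

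The scanner software's own summed signal gave a different picture of miR-222 on 1 array. On replicate 1 of KO at 24 h it reported 168.61, against 55.6 and 39.9 in untreated KO cells, although the totals of its 2 probes on that array were 3.78 and 7.76. The summed signal of miR-221, which stands before miR-222 in the value table, was 160.848 on that array. Adding the 7.76 of the second miR-222 probe gives 168.611. On the 4 untreated arrays the summed signal of miR-222 equalled the sum of its probe totals, which was 55.6 and 39.9 in KO and 19.1 and 20.7 in WT. The deposited table holds log2 of this summed signal and so lists miR-222 at 7.40 on the KO 24 h array, against 5.80 and 5.32 in untreated KO cells.

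The same relation was seen in other miRNAs. Over all 12 arrays, 739 of 2034 summed signals of detected miRNAs differed by 5% or more from the sum of the probe totals. Of these, 638 equalled, within 0.2%, the summed signal of the preceding detected miRNA plus some or none of their own probe totals. The summed signal of miR-221 matched its probe totals on all 12 arrays. Apart from those given for the deposited table and the summed signal, the values above were built from the spots and do not use the summed signal.

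**Figure D4:**
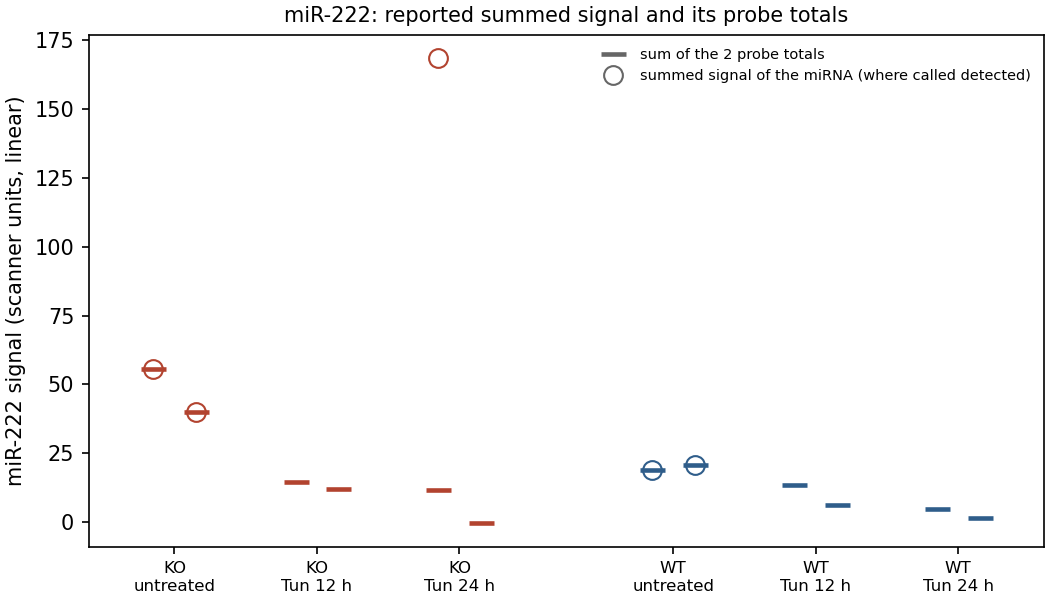
Signal of miR-222 on each array in linear scanner units, with replicate 1 left of replicate 2 in each group; dashes are the sum of its 2 probe totals and circles the summed signal reported where the miRNA was called detected. The circle of KO at 24 h, replicate 1, lies at 168.61 above probe totals that sum to 11.5, while the 4 untreated circles lie on their dashes.

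The miRNAs with patterns most like the pair over the 12 arrays were named by Pearson's r with the mean of both members, among 58 miRNAs well above background on all arrays. They were miR-199a-3p (r = 0.86), miR-125b-5p (r = 0.83), miR-199a-5p (r = 0.82), miR-103 (r = 0.79) and miR-214 (r = 0.79). miR-221 and miR-222 themselves had r = 0.69. These r values are descriptions over arrays that share slides, runs and scaling. miR-222 lay at the floor on every treated array, so r with it or with the mean largely follows untreated against treated arrays. For miR-199a-3p, r was 0.92 with miR-222 and 0.66 with miR-221.

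The changes of these miRNAs are given as their own values, with no test against the members. Picking by r on the same arrays favours miRNAs that are lower after treatment, so these falls are no separate support. miR-199a-3p fell, with log2 differences of -1.18 at 12 h and -1.06 at 24 h in KO (adjusted p = 0.0018 and 0.00284), and of -0.89 and -0.85 in WT (adjusted p = 0.00224 and 0.00284). Its untreated KO minus WT difference was 0.31 ± 0.14 (SE, adjusted p = 0.18). miR-214, made from one primary transcript with miR-199a, fell in KO with differences of -1.29 at 12 h and -1.41 at 24 h (adjusted p = 0.0035 and 0.00284). In WT miR-214 had -0.65 and -0.83 (adjusted p = 0.0253 and 0.00949). For miR-125b-5p the differences in KO were -0.61 at 12 h and -0.88 at 24 h (adjusted p = 0.147 and 0.0694). They were -0.61 and -1.03 in WT (adjusted p = 0.078 and 0.0118), where only 24 h passed. For miR-103 the fall passed in WT at both times, with -0.66 at each (adjusted p = 0.0415 and 0.0432), and not in KO (-0.65 and -0.44, adjusted p = 0.0892 and 0.269). None of miR-199a-3p, miR-125b-5p, miR-199a-5p, miR-103 and miR-214 passed the test between untreated genotypes.

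**Figure D5:**
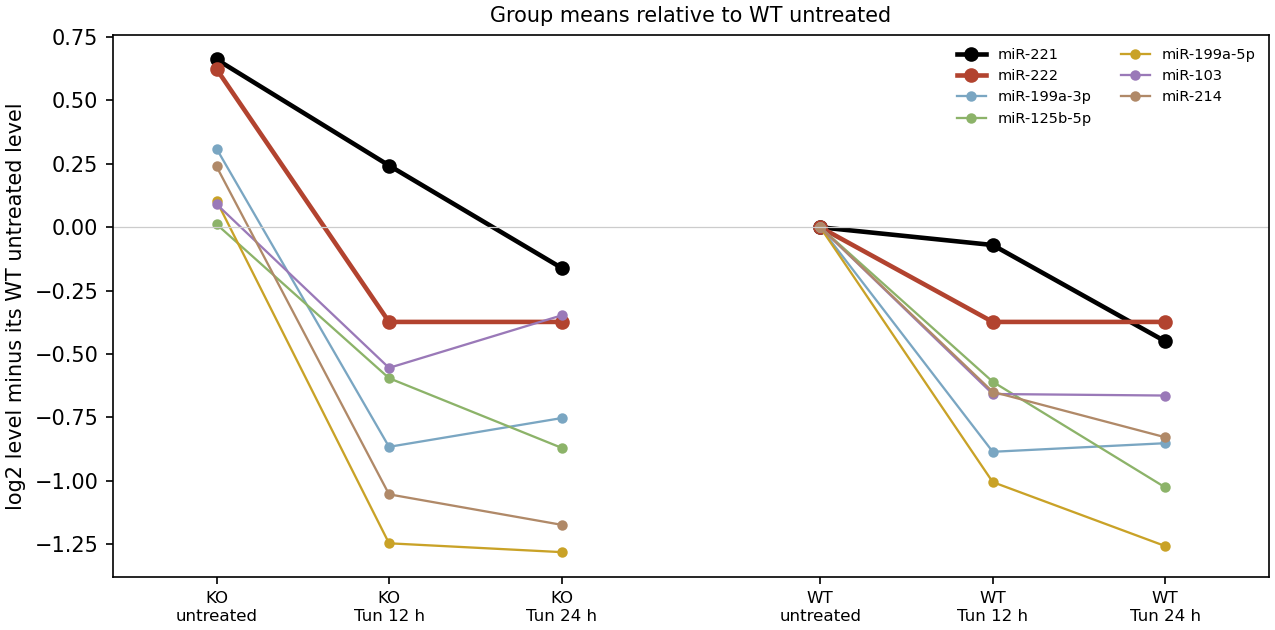
Group mean log2 level of miR-221, miR-222 and the 5 miRNAs with the most similar pattern, each minus its own untreated WT level, in KO (left) and WT (right). Untreated KO lies at 0.66 for miR-221 and 0.62 for miR-222, against 0.01 to 0.31 for the others, and the treated points of miR-222 lie at the floor.

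Other miRNAs linked to ER stress were followed as a list of 27, of which 17 were tested. In KO cells 3 of the 17 were lower and none higher at 12 h, where 14.3% of all tested miRNAs were lower. At 24 h 2 were lower and none higher, where 8% of tested miRNAs were lower, with list medians of -0.39 and -0.01 on the log2 scale. In WT cells 6 were lower and none higher at 12 h, where 38.3% of tested miRNAs were lower. At 24 h 6 were lower and 2 higher, where 33.7% were lower and 7.43% higher, with medians of -0.39 and -0.23. These counts lie near the shares of all tested miRNAs and are no result about the list. The medians over all tested miRNAs were those given for the responses of miR-221.

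From the list, miR-199a-5p and miR-214 were lower in all 4 treated groups. miR-199a-5p, described in human liver cells as a repressor of ER stress sensors, fell with differences of -1.35 and -1.39 in KO and -1.005 and -1.26 in WT at 12 h and 24 h (adjusted p between 0.00426 and 0.0104). miR-34a, a p53 target, had -0.41 in KO at 12 h (adjusted p = 0.0366) and -0.88 in WT at 12 h (adjusted p = 0.000753), and -0.43 in WT at 24 h (adjusted p = 0.0131). It was higher in KO than in WT at 12 h by 0.48 (adjusted p = 0.0355). miR-495 was well above background on no treated WT array and entered the tested set through its untreated groups alone. That filter favours its being counted as lower in WT at both times, so no test of this is given as a result. The bound for miR-495 in WT at 12 h was at least 2.18-fold lower. It lies in the direction that the filter favours, so it is a description and no support. No strict bound is given at 24 h, since the lowest signal well above background on 1 array there lay above the untreated level.

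Members of the list that were lower in WT at 1 or both times also included miR-379, miR-30e and miR-125b-5p. miR-379 fell in WT with -1.25 at 12 h and -0.95 at 24 h (adjusted p = 0.00575 and 0.018). miR-30e had -0.70 at 12 h (well above background on 1 of 2 treated arrays) and also entered the tested set through its untreated groups alone. miR-125b-5p had -1.03 at 24 h (adjusted p = 0.0118). The 2 that rose in WT at 24 h were miR-23a, by 0.55 (adjusted p = 0.0324), and miR-96, by 0.41 (adjusted p = 0.0104).

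Between untreated genotypes, 3 of the 17 were lower in KO, as were 24.6% of tested miRNAs, and none was higher, against 3.43% of tested miRNAs. They were miR-96 with -0.69 (adjusted p = 0.00145), miR-379 with -1.05 (adjusted p = 0.0175) and miR-495 with -1.07 (adjusted p = 0.0122). miR-96 was also lower in KO at 12 h and at 24 h, with -0.87 and -1.03 (adjusted p = 0.00204 and 0.000608). At 12 h it was well above background on 1 of 2 KO arrays. In none of the 17 did the responses of KO and WT differ past the threshold at either time, where 9.71% of tested miRNAs passed at 12 h and 13.1% at 24 h. Nor did 24 h against 12 h pass for any of them within a genotype, where 2.29% passed in KO and 1.14% in WT.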

How the data were processed

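Cy3-labelled RNA was scanned and, as the submitters' processing notes give it, read with Agilent Feature Extraction 10.7.1.1. Each spot's intensity was deposited on a linear scale, background-subtracted but not scaled across arrays, per the file headers. In the series table the authors deposited log2 of the software's summed signal. Of 13715 spots per array, 715 were controls, and none of the other spots was saturated. Spots not marked as outliers were averaged for 1857 probes, divided by the array's 75th percentile over 87 probes, floored and put on the log2 scale. A miRNA was the mean of its probes well above background on both arrays of a group, which left 175 of 650. Group means were fitted over the 12 arrays with limma 3.58.1 (R 4.3.3), leaving 6 residual degrees of freedom. p-values were adjusted within each of 11 comparisons over 175 miRNAs, with a threshold of 0.05, and the fit was tested on simulated data. The precision is limited by the 2 arrays per group.

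The members and lists were chosen with earlier results of these data known. Both members were named in every comparison, with the 5 miRNAs of highest correlation and the listed miRNAs that passed with groups that did not overlap. An at-least fold sets the bright group's mean against the higher, per dim array, of its lowest signal well above background and the dim value. Replicate numbers follow the scanning runs within a slide only, so they do not pair untreated with treated arrays. Alternatives covered scaling, background correction, probe summary, filters, blocks and each array left out.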

Additional observations from a re-analysis of the deposited data

Results flagged for a closer look

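Outside the values used for the comparisons, the summed signal of miR-222 on replicate 1 of KO at 24 h stood at 168.61, above the 19.1 to 55.6 of the untreated arrays. The probe totals of miR-222 on that array sum to 11.5, and the summed signal of miR-221 plus 1 miR-222 probe total comes to 168.611.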

How the results depend on the processing

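Log2 differences under other settings are given here. No call of miR-221 was made in the fit of all arrays, and some settings made one. With the replicate block, whose numbers pair samples within a slide only, miR-221 passed for KO at 24 h against untreated (-0.82, adjusted p = 0.0402) and for untreated KO against WT (0.66, adjusted p = 0.0468); the block changed no other call of the members. With the scanning run as a block these 2 (-0.82 and 0.66) and WT at 24 h (-0.45) passed, and with the groups compared only, untreated KO against WT (0.66) and WT at 24 h (-0.45). With the replicate block, 25 of the 175 tested miRNAs passed for KO at 24 h and 53 for untreated KO against WT. The counts for the other fits are given above. A crossed replicate block, added after seeing the data because untreated and treated deviations correlated between -0.66 and -0.45, called 2 to 87 miRNAs per comparison, against 2 to 78 in the main setting. The median of spots, also added after seeing the data, changed no call of the members.

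miR-221 reversed in these settings: 24 h minus 12 h was 0.25 in KO and 0.20 in WT with quantile normalization, 0.25 in KO and 0.44 in WT when scaled on all probes, and 0.0089 in WT with normexp. KO minus WT at 24 h was -0.028 with normexp and, scaled on all probes, -0.15, and WT at 12 h was 0.064 in the deposited table. The cause was not tested. The median difference over all tested miRNAs itself moved by -0.71 to 0.52 across comparisons when scaled on all probes, by -0.36 to 0.22 with quantile normalization and by -0.29 to 0.45 with normexp. limma then called 0 miRNAs in every comparison (0 to 13 at unadjusted p under 0.05) when scaled on all probes, 0 to 13 (3 to 36) with quantile normalization, 0 to 8 (1 to 26) with normexp and 0 to 2 (2 to 26) in the deposited table, against 2 to 78 in the main setting.

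For miR-222, differences against untreated cells and differences of responses are set by the floor and are listed as fitted values only, with no call. Untreated KO against WT kept its call with the replicate block, the scanning run as a block, all probes and the brightest probe. With normexp it was -0.043 for untreated KO against WT, -0.28 and -0.10 for KO at 12 h and 24 h, -0.21 and 0.27 for WT, and -0.073 and -0.37 for the difference of responses, none past the threshold. Scaled on all probes it was 1.02 for untreated KO against WT, -1.33 for KO at both times, -0.32 and -0.31 for WT, and -1.02 and -1.03 for the difference of responses, none past the threshold. Quantile normalization gave -0.29 for WT at both times, no longer past the threshold. With the groups compared only, KO at 12 h (-0.997) and the 12 h difference of responses (-0.62) were no longer past it. Untreated KO against WT was 1.25 in the deposited table, 1.19 after centring it and 0.69 from the summed signal, none past the threshold. KO at 24 h was 1.84, 1.67 and 1.73 there, all resting on the 168.61 of 1 array. miR-222 drops out where all 12 arrays must be well above background.

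Leaving out each array in turn gave ranges for miR-221 of -0.80 to -0.041 for KO at 12 h, -1.02 to -0.62 for KO at 24 h, -0.20 to 0.056 for WT at 12 h, 0.64 to 0.69 for untreated KO against WT, -0.064 to 0.69 and 0.089 to 0.49 for KO against WT at 12 h and 24 h, -0.73 to 0.029 and -0.57 to -0.17 for the 12 h and 24 h differences of responses, -0.55 to -0.35 for WT at 24 h, and -0.78 to -0.026 in KO and -0.51 to -0.25 in WT for 24 h minus 12 h. Without either KO 12 h array, KO at 24 h (adjusted p = 0.0134) and untreated KO against WT (adjusted p = 0.0187) passed. For miR-222 untreated KO against WT ranged from 0.52 to 0.72 and kept its call.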
